A study of Mus musculus with 8 samples.

Results

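The 9 genes described here, Gadd45a, Cdkn1a, Runx1, Hdac4, Hdac5, Hdac9, Ncam1, Mef2c and Mef2d, are regulators linked to denervation, disuse and cellular stress in skeletal muscle. They were chosen by name from a table of 55487 gene identifiers, and all 9 were among the 15135 genes that had at least 10 counts in every library. RNA sequencing was performed on the muscle of 8 male C57BL/6J mice aged 10 weeks. All 8 had casts on both hind legs for 8 days and were injected intraperitoneally with K14Q MOTS-c, at 15 mg/kg each day in 2 injections, over the same days. MOTS-c is a peptide encoded in mitochondrial DNA, and K14Q MOTS-c carries glutamine in place of lysine. The sample labels name the vastus lateralis muscle, whereas the series design and the study's methods name the gastrocnemius. Only 1 condition was analysed here, so the effects of casting and of the peptide cannot be told apart from each other or from the baseline. The results below are levels, their spread between mice, their order and their covariation, with mice as the replicates.

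The libraries held 23985356 to 33012497 counts, with the fewest in mouse 4 and the most in mouse 5. The 10 most abundant genes took 18.8% to 26.2% of the counts. All 6 muscle fibre markers reached the count minimum, led by Myh4, the heavy chain of the fastest fibres, and their summed level ran from 1639021 normalized counts in mouse 3 to 3328404 in mouse 1. Of the 3 T cell markers, none reached the minimum, and Cd3e, Cd3g and Cd2 were each at 0 in some library, with a summed level of 1.10 to 8.65 normalized counts. The RNA came from whole muscle, so fewer cells of a type and less RNA per cell cannot be told apart in any value given here.

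When a muscle loses its nerve supply or is no longer used, fibres shift their transcription. In the best known route, class IIa histone deacetylases enter the nucleus and bind MEF2 factors, which drive muscle structural and metabolic genes, while Hdac4 also relieves repression of myogenin, a factor that switches on acetylcholine receptor subunits and atrophy genes. Gadd45a and Cdkn1a are growth arrest genes that denervated, fasted or immobilized fibres express, and Runx1 and Ncam1 are classic genes of denervated fibres.

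The promoters of Gadd45a, Runx1 and Hdac4 are shown because Runx1 passed the test of covariation between mice with each of the other genes, while Gadd45a with Hdac4 did not (r = 0.81). Each window is 300 bases of RefSeq sequence on GRCm38.p6, from 250 bases before to 50 bases after an annotated start, written 5′ to 3′ on the gene's own strand, which is the minus strand in every case. Capitals mark the E-box CANNTG, the site class bound by myogenin and its relatives, and the CCAAT box on either strand. Gadd45a lies at chr6:67037358-67037657, the windows of Runx1 at chr16:92826025-92826324 for the distal start and chr16:92697280-92697579 for the proximal one, and Hdac4 at chr1:92180292-92180591.
Gadd45a: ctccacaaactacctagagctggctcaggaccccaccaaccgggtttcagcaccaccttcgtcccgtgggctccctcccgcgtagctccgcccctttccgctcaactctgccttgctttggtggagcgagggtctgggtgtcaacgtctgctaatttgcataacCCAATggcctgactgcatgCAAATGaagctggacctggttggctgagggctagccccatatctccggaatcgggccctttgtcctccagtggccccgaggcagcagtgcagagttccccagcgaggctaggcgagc
Runx1 distal: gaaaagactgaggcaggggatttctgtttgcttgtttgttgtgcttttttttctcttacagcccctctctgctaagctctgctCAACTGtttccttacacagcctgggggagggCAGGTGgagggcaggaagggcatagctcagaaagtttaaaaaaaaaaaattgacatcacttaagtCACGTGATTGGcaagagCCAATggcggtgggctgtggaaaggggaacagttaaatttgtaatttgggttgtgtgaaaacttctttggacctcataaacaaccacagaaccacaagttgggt
Runx1 proximal: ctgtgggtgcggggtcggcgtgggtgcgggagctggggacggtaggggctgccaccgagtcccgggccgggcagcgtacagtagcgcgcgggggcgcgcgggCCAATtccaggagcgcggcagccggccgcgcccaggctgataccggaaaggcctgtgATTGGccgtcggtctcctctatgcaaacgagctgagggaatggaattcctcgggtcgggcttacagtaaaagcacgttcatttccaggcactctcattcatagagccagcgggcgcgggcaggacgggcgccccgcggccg
Hdac4: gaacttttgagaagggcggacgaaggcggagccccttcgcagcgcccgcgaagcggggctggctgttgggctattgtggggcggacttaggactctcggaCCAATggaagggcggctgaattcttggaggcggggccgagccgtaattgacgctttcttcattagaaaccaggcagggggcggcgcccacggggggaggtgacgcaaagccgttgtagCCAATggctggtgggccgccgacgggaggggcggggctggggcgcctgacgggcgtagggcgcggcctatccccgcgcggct
A CCAAT box was found 1 time in the Gadd45a window and 2 times in each of the other 3 windows. Among the 13 windows that RefSeq gave for 8 of the 9 genes, 8 held a CCAAT box, against 37.4% of 32851 windows of the same length genome-wide. E-boxes were in 9 of the 13 windows against 72.3% genome-wide. In the distal Runx1 window 3 E-boxes were found, 1 of them directly next to a CCAAT box, and the Gadd45a window held 1. The GC box GGGCGG was in 6 of the 13 windows against 35.7%, with 5 copies in the Hdac4 window. The RUNX motif TGTGGT was found in the distal Runx1 window alone, with 2 matches, against 16.8% genome-wide. TATAAA was in 3 windows against 13.6%, a MEF2 site in the Hdac5 window alone against 3.19%, and the cyclic AMP response element TGACGTCA in 0 of 13 against 1.79%. Both strands were searched, and a match describes letters, not binding.

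Gadd45a and the MEF2 factors were the most abundant of the 9 genes, and Hdac9 was by far the scarcest. The level compared between genes was the normalized count per kb of merged exon, meaning the union of a gene's annotated exons, on a log2 scale after adding 1. Gadd45a averaged 11.51, followed by Mef2c at 10.35, Mef2d at 9.93, Cdkn1a at 8.24, Hdac4 at 7.29, Hdac5 at 7.25, Ncam1 at 5.89, Runx1 at 5.88 and Hdac9 at 2.40. Set against all genes at the count minimum, the mean level per kb of Gadd45a was at percentile 97.6, that of Ncam1 at 41.7 and that of Hdac9 at 2.06.

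Of the 8 neighbouring pairs in this order, 6 differed within mice by an exact sign-flip permutation test, two-sided, after Benjamini-Hochberg adjustment over the 8 pairs. Gadd45a exceeded Mef2c by 1.16 ± 0.99 (SD of the log2 difference, n = 8) in 7 of 8 mice, the exception being mouse 5 (exact permutation p = 0.0234, adjusted p = 0.0312). This call was lost without mouse 2, 3, 4, 6, 7 or 8 (adjusted p = 0.0625) and with the length of the longest transcript in place of merged exons (difference 0.36, adjusted p = 0.3125). Mef2c exceeded Mef2d by 0.42 ± 0.28 in 7 of 8 mice (exact permutation p = 0.0156, adjusted p = 0.025), and here leaving out mouse 2, 4, 6, 7 or 8 brought the adjusted p to 0.05. The steps from Mef2d to Cdkn1a (1.69), Cdkn1a to Hdac4 (0.95), Hdac5 to Ncam1 (1.36) and Runx1 to Hdac9 (3.48) pointed the same way in 8 of 8 mice, each with an exact permutation p = 0.0078, the smallest that 8 mice allow, and an adjusted p = 0.0156. Hdac4 and Hdac5 were not separated, with a difference of 0.05 ± 0.50 and the higher value in 5 of 8 mice for Hdac4 (exact permutation, adjusted p = 0.902). Ncam1 and Runx1 were not separated either, at 0.02 ± 0.41 and 4 of 8 mice each way (exact permutation, adjusted p = 0.914). Their order turned with the longest transcript as length, which put Runx1 above Ncam1 by 0.61 (Ncam1 minus Runx1 -0.61, exact permutation, adjusted p = 0.0125).

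**Figure D1:**
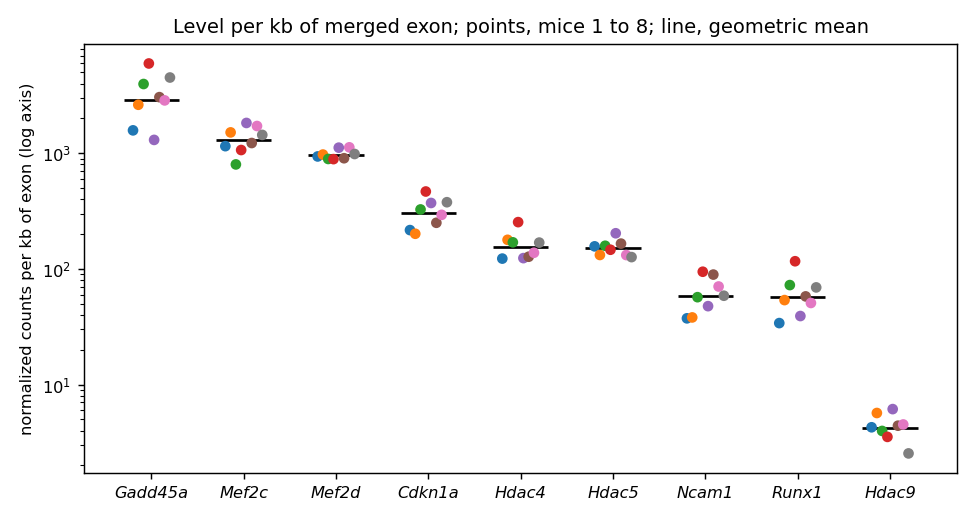
Normalized counts per kb of merged exon for the 9 genes on a log axis, in falling order from left to right; points are mice 1 to 8 from left to right within each gene, and the line is the geometric mean. Gadd45a spread more widely than the neighbouring Mef2c and Mef2d, and the arithmetic means, which lie slightly above the lines, were 3240, 1345 and 979 per kb for these and 4.38 for Hdac9, the lowest.

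The members were spread more widely between these 8 mice than most genes. The coefficient of variation (CV, the SD as a percent of the mean) was above the all-gene median of 15.6% in 8 of 9, with a median of 27.4% over the members, and in 8 of 9 also without mouse 4 (median 25.6%). The variance between mice was at least 2 times the variance that counting alone gives in 9 of 9, against 82.3% of all genes at the count minimum. Mouse 4 held the highest value of 5 members, namely Gadd45a, Cdkn1a, Runx1, Hdac4 and Ncam1, whereas it held the highest value of 13.1% of all genes. It also had the highest summed level of the 6 macrophage markers, 3673 normalized counts, against a lowest of 1454 in mouse 8 (by the mean over mice, Mrc1 was the most abundant of them), and all 6 reached the count minimum. The macrophage score had r = 0.35 with Hdac4, 0.20 with Runx1 and -0.03 with Gadd45a (exact permutation p = 0.411, 0.634 and 0.945, adjusted p = 0.856, 0.926 and 0.945). Without mouse 4 these were -0.16, -0.35 and -0.49, and the part of macrophages in these levels was not tested. Mouse 4 had the second lowest muscle fibre score, -1.11, above -1.56 in mouse 3. That score had r = -0.71 with Runx1, -0.56 with Cdkn1a, -0.55 with Gadd45a, -0.55 with Hdac4 and -0.50 with Ncam1 (exact permutation, adjusted p = 0.604, 0.646, 0.646, 0.646 and 0.668). Without mouse 4 these r were -0.57, -0.38, -0.36, -0.29 and -0.31. The slow fibre score, with 4 of 4 markers at the minimum and a summed level of 6058 in mouse 3 to 14586 in mouse 1, led by Myh7, had r = -0.67 with Runx1 and -0.66 with Hdac4 (exact permutation, adjusted p = 0.604 each). None of these passed, and the part of fibre content in these levels was not tested. Mouse 5 held the highest value of Hdac5, Hdac9 and Mef2c, and mouse 7 that of Mef2d. Mouse 5 also had the highest blood marker score, 1.60. The blood score had r = 0.69 with Hdac5, 0.56 with Hdac9 and -0.10 with Mef2c (exact permutation, adjusted p = 0.604, 0.646 and 0.945). Without mouse 5 these r were 0.38, 0.32 and -0.66, and the part of blood in these levels was not tested. Mouse 1 was lowest for Runx1, Hdac4 and Ncam1.

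**Figure D2:**
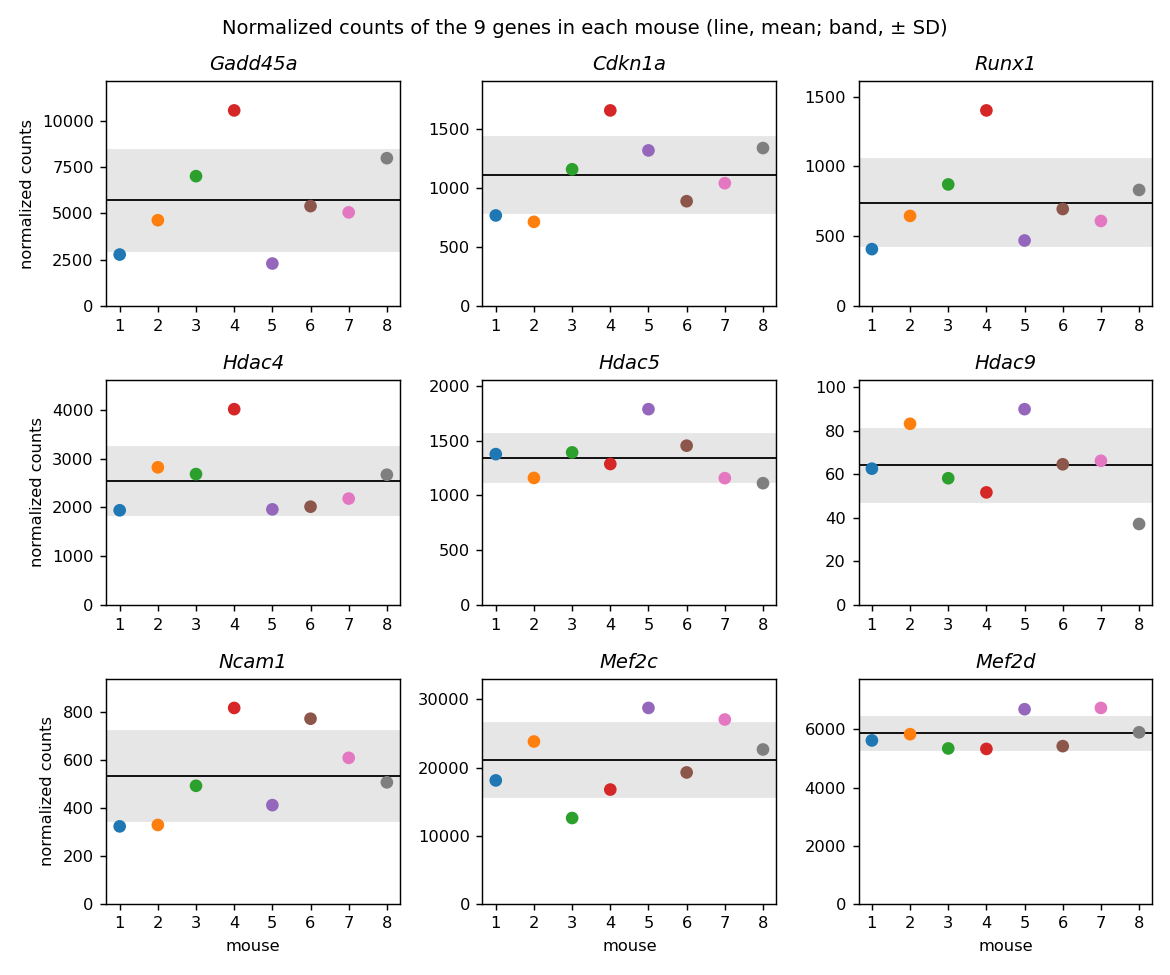
Normalized counts of each gene in mice 1 to 8 on linear axes that start at 0, with the mean as a line and the mean ± SD as a grey band. Mouse 4 lies above the band for Gadd45a (10551), Cdkn1a (1660), Runx1 (1401), Hdac4 (4015) and Ncam1 (819.1), and mouse 5 does so for Hdac5 (1786), Hdac9 (89.9) and Mef2c (28756).

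Among the growth arrest genes, Gadd45a, whose product binds stress kinases and cell cycle proteins, was the most variable member. Its gene (ENSMUSG00000036390) lies at chr6:67035096-67037457 on GRCm38. Normalized counts ran from 2303 in mouse 5 through a median of 5228 to 10551 in mouse 4, a range of 4.58-fold. The mean was 5715 ± 2728 (SD, n = 8), and its CV of 47.7% was at percentile 98.6 of all genes. Mice 1 and 5 were low, mice 3, 4 and 8 were high, and the remaining mice lay between 4637 and 5397. Within the GADD45 family, Gadd45a took 69.4% ± 12.4 of the summed level per kb, from 51.3% in mouse 5 to 86.0% in mouse 4. Gadd45g, the relative induced by growth factors and cytokines, took 25.9% ± 10.4, and Gadd45b, an immediate responder to stress and inflammation, 4.68% ± 3.03. Of the 1764 exon bases of Gadd45a, 337 are shared with the antisense gene E230016M11Rik, which had 26 to 40 counts per library against 2511 to 9596 for Gadd45a. Whether the counting used strand is not given in the sources used here.

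Cdkn1a (ENSMUSG00000023067, chr17:29090976-29100727) encodes p21, an inhibitor of cyclin-dependent kinases and a target of p53. Its normalized counts were 715.5 in mouse 2, 1102 at the median and 1660 in mouse 4, and averaged 1113 ± 322 (SD, n = 8, CV 29.0%). After mouse 4, the next values were 1341 in mouse 8 and 1321 in mouse 5, so mouse 5 was high for Cdkn1a while it was the lowest for Gadd45a. In the CIP/KIP family Cdkn1a took 36.4% ± 8.75 of the level per kb, Cdkn1b (p27) 38.3% ± 3.35 and Cdkn1c (p57) 25.3% ± 6.97. With the longest transcript as length the order turned, with 48.4% for Cdkn1a and 30.1% for Cdkn1b. By merged exons the Cdkn1a share ran from 25.2% in mouse 1 to 48.8% in mouse 4.

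Runx1 (ENSMUSG00000022952, chr16:92601466-92826149) encodes a DNA-binding factor that protects denervated fibres from wasting. It measured 408.8 normalized counts in mouse 1, 671 at the median and 1401 in mouse 4, with a mean of 742 ± 310 (SD, n = 8). The value of mouse 4 lay apart from the other mice, which ended at 871.5 in mouse 3, and without mouse 4 the CV went from 41.8% to 26.5%. Runx1 was nearly the sole RUNX gene in these libraries, with 95.9% ± 1.82 of the family level per kb. Runx2, the bone factor, had 5 to 19 counts per library and Runx3, a lymphocyte and neuron factor, 1 to 6. Cbfb, the shared partner that stabilizes RUNX proteins on DNA, averaged 2552 ± 549 (SD, n = 8) normalized counts and its r with Runx1 was -0.45 over 8 mice (exact permutation p = 0.265, adjusted p = 0.62 over the 297 relations described below).

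Of the class IIa histone deacetylases, Hdac4 and Hdac5 held most of the family level and were not separated from each other, while Hdac7 was low and Hdac9 the scarcest. Hdac4 (ENSMUSG00000026313, chr1:91928779-92195699), the deacetylase best known to accumulate in denervated muscle, had 1942 normalized counts in mouse 1, 2427 at the median and 4015 in mouse 4, with a mean of 2537 ± 696 (SD, n = 8). As for Runx1, mouse 4 stood apart, since the other 7 mice ended at 2823, and without it the CV of 27.4% became 16.6%. Of its 15813 exon bases, 3536 overlap Gm26720 on the opposite strand, which was not analysed here.

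Hdac5 (ENSMUSG00000008855, chr11:102194432-102230166), a deacetylase that leaves the nucleus when calcium-dependent kinases phosphorylate it, had a different profile. Its normalized counts went from 1111 in mouse 8 through a median of 1331 to 1786 in mouse 5, a mean of 1340 ± 219 (SD, n = 8). The CV of 16.4% was near the all-gene median and became 10.6% without mouse 5. Hdac9 (ENSMUSG00000004698, chr12:34047580-34917095), a deacetylase that is itself under MEF2 and nerve activity control, had 37.2 normalized counts in mouse 8, 63.6 at the median and 89.9 in mouse 5. These rested on 34 to 98 counts per library, and the variance between mice was 4.28 times the counting variance, the smallest excess of the 9 members.

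Hdac4 took 44.8% ± 8.11 of the class IIa level per kb and Hdac5 43.3% ± 7.13, with 10.7% ± 1.53 for Hdac7, which is best known from vessels and lymphocytes, and 1.25% ± 0.341 for Hdac9. The shares of Hdac4 and Hdac5 were 57.7% and 33.3% in mouse 4, and 33.0% and 54.2% in mouse 5. These 2 genes held most of a fixed total, so the share of 1 falls when that of the other rises. In mouse 4 the normalized count of Hdac5 was 1286, near its median of 1331.

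**Figure D3:**
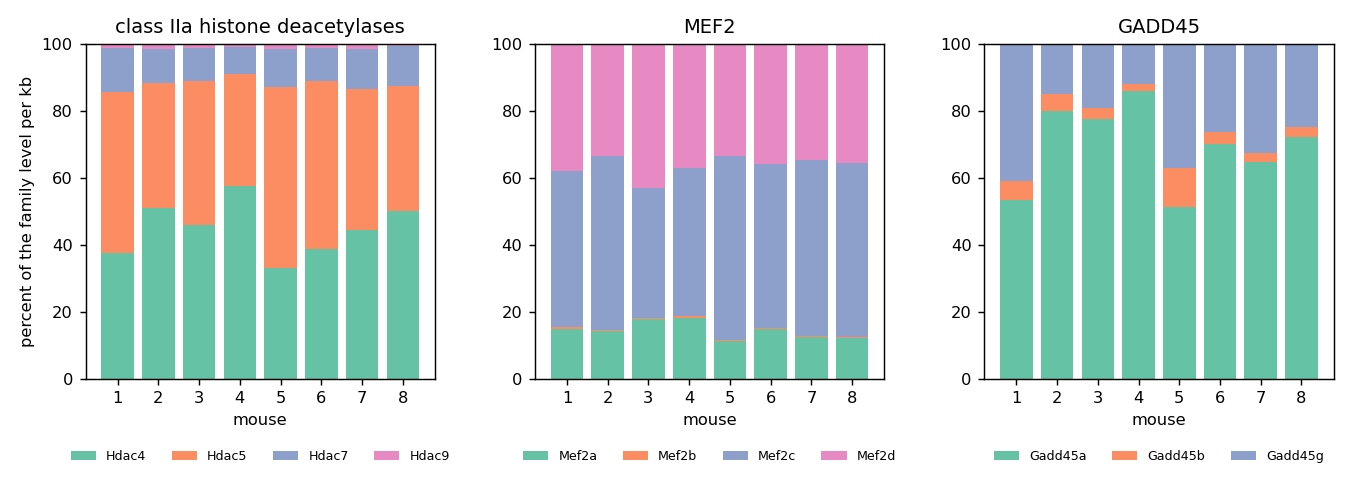
Percent of the summed level per kb of each family held by each gene in mice 1 to 8, as stacked bars from 0 to 100, for the class IIa histone deacetylases, the MEF2 factors and the GADD45 genes. Hdac4 ranges from 33.0% in mouse 5 to 57.7% in mouse 4, Mef2c from 38.7% in mouse 3 to 54.8% in mouse 5, and Gadd45a from 51.3% in mouse 5 to 86.0% in mouse 4.

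Ncam1 (ENSMUSG00000039542, chr9:49502136-49798925) encodes a cell adhesion molecule that sits at the neuromuscular junction of innervated fibres and spreads over the membrane of denervated ones. It is also made by satellite cells and Schwann cells. Normalized counts were 323.8 in mouse 1, 500.7 at the median and 819.1 in mouse 4, with a mean of 534 ± 188 (SD, n = 8, CV 35.2%). Mice 4 and 6 (774.0) were high and mice 1 and 2 (329.7) were low, so the order of the mice differed from that of Hdac4, for which mouse 2 was the second highest. Its relative Ncam2 had 0 to 4 counts per library. The r of Ncam1 was 0.34 with the satellite cell marker score, 0.13 with that of Schwann cells and -0.78 with that of endothelium (exact permutation p = 0.445, 0.789 and 0.0272, adjusted p = 0.856, 0.945 and 0.604 over 108 relations). The r was -0.06 with the satellite cell score without mouse 6, -0.18 with the Schwann cell score without mouse 7, and -0.34 with the endothelial score when library totals were the scaling. The Schwann cell list had 6 of 6 markers at the count minimum and a summed level of 1629 in mouse 5 to 3945 in mouse 7. The satellite cell list had 3 of 4 and ran from 856 in mouse 8 to 1287 in mouse 3, led by Cdh15, and the endothelial list had 5 of 5 and ran from 3135 in mouse 8 to 4904 in mouse 2, led by Pecam1. The part of these cells in the Ncam1 level was not tested.

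The MEF2 factors were abundant and differed in how steady they were. Mef2c (ENSMUSG00000005583, chr13:83504034-83667080), which activates sarcomere and metabolic genes, had 12591 normalized counts in mouse 3, 20969 at the median and 28756 in mouse 5, with a mean of 21132 ± 5442 (SD, n = 8, CV 25.8%). Mef2d (ENSMUSG00000001419, chr3:88142372-88172086), whose muscle isoform escapes repression during differentiation, was the steadiest member. It ran from 5329 in mouse 4 through 5728 at the median to 6740 in mouse 7, with a mean of 5862 ± 569 (SD, n = 8), and its CV of 9.71% was the only one below the all-gene median. Mice 5 and 7 were the highest for both genes, and mice 3 and 4 the lowest. Mice 3 and 4 also had the lowest muscle fibre scores. That score had r = 0.70 with Mef2c and 0.53 with Mef2d (exact permutation, adjusted p = 0.604 and 0.646). With library totals these r were 0.40 and -0.57, and the part of fibre content in the MEF2 levels was not tested. Mef2c took 48.8% ± 5.34 of the MEF2 level per kb, Mef2d 36.4% ± 3.16, Mef2a 14.4% ± 2.51 and Mef2b 0.41% ± 0.147. These shares depended on the gene length used: with the longest transcript, Mef2c took 60.6%, Mef2d 20.1% and Mef2a 19.1%.

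Which members went together between mice was measured by Pearson's r of log2(normalized count + 1) over the 36 pairs, with an exact permutation p over all possible pairings of the 8 mice. After Benjamini-Hochberg adjustment over the 36 pairs, 3 passed, all positive, and 5 had an unadjusted p under 0.05. With Spearman's rho, 0 pairs passed. Of the 36 pairs, 4 had an r of at least 0.8 in size. The 9 genes were chosen with earlier results of these data known, so their share of such pairs is a description.

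Gadd45a and Runx1 were ordered almost alike in the 8 mice, as the values given above for each gene show. Their r was 0.94 (exact permutation p = 5.46e-04, adjusted p = 0.0196) and their rho 0.93 (exact permutation p = 0.0022, adjusted p = 0.0804), and r was 0.97 without the 2 mice farthest from the median of Gadd45a. Of the 15134 other genes at the count minimum, 3.20% had an r of at least 0.8 in size with Gadd45a, and 23 (Runx1 included) had one as large as Runx1 did. Leaving out 1 mouse kept r between 0.93 and 0.97, but the adjusted p passed only without mouse 2 (0.025) or mouse 7 (0.0429), and was 0.0536 to 0.164 without mouse 1, 3, 4, 5, 6 or 8.

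Runx1 and Hdac4 had an r of 0.89 (exact permutation p = 0.0037, adjusted p = 0.0443) and a rho of 0.81 (exact permutation p = 0.0218, adjusted p = 0.196). This relation leaned on mouse 4, the highest for both: r was 0.75 without it (exact permutation, adjusted p = 0.604) and 0.67 without the 2 mice farthest from the Runx1 median. Leaving out mouse 1, 3, 5, 6, 7 or 8 also brought the adjusted p above 0.05, to between 0.0571 and 0.164, and without mouse 2 it was 0.025. With TMM factors the call was lost too (r = 0.89, exact permutation, adjusted p = 0.0674), while it held with library totals (r = 0.94, exact permutation, adjusted p = 0.0125). Under library totals, however, 83.6% of all genes had a positive r with Runx1 and 84.1% with Hdac4, against 50.2% and 51.9% with the deposited scaling. Among all other genes, 3.35% had an r of at least 0.8 in size with Runx1 and 1.52% with Hdac4. Gadd45a and Hdac4 had an r of 0.81 that missed the threshold (exact permutation p = 0.014, adjusted p = 0.126), and it passed once each library had been corrected for GC content and for the length of transcripts (r = 0.92, exact permutation, adjusted p = 0.0208).

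Library depth had negative r with these 3 genes, none past the adjusted threshold. Over 8 mice r with library depth, as total counts, was -0.83 for Gadd45a, -0.83 for Hdac4 and -0.82 for Runx1 (exact permutation p = 0.0089, 0.0124 and 0.0193, adjusted p = 0.604 for each over 108 relations). Without mouse 4 it was -0.55 for Hdac4 and -0.56 for Runx1, and for Gadd45a the value nearest to 0 was -0.74, without mouse 5. Mouse 4, the highest for all 3, had the shallowest library, and mouse 5, low for all 3, the deepest. With the trend on depth removed from each gene, r was 0.83 for Gadd45a and Runx1, 0.65 for Runx1 and Hdac4 and 0.37 for Gadd45a and Hdac4, and 0 of 36 pairs passed. The part of depth in these relations was not tested further.

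Mef2c and Mef2d had an r of 0.87 (exact permutation p = 0.0028, adjusted p = 0.0443), a rho of 0.90 (exact permutation p = 0.0046, adjusted p = 0.0821) and an r of 0.91 without the 2 mice farthest from the Mef2c median. Of all other genes, 3.10% had an r of at least 0.8 in size with Mef2c and 3.26% with Mef2d. With the depth trend removed its r was 0.88 (exact permutation, adjusted p = 0.138), and with TMM factors it was 0.85 (exact permutation, adjusted p = 0.0866), so the call was lost under both. It depended on how the libraries were scaled, with r = 0.40 when the counts were divided by library totals (exact permutation, adjusted p = 0.702), a scaling that moved single libraries by -0.13 to 0.21 on the log2 scale relative to the deposited one. Without 1 mouse r stayed between 0.83 and 0.94, and the adjusted p passed without mouse 2 alone (0.0333), lying between 0.0536 and 0.164 without mouse 1, 3, 4, 5, 6, 7 or 8.

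**Figure D4:**
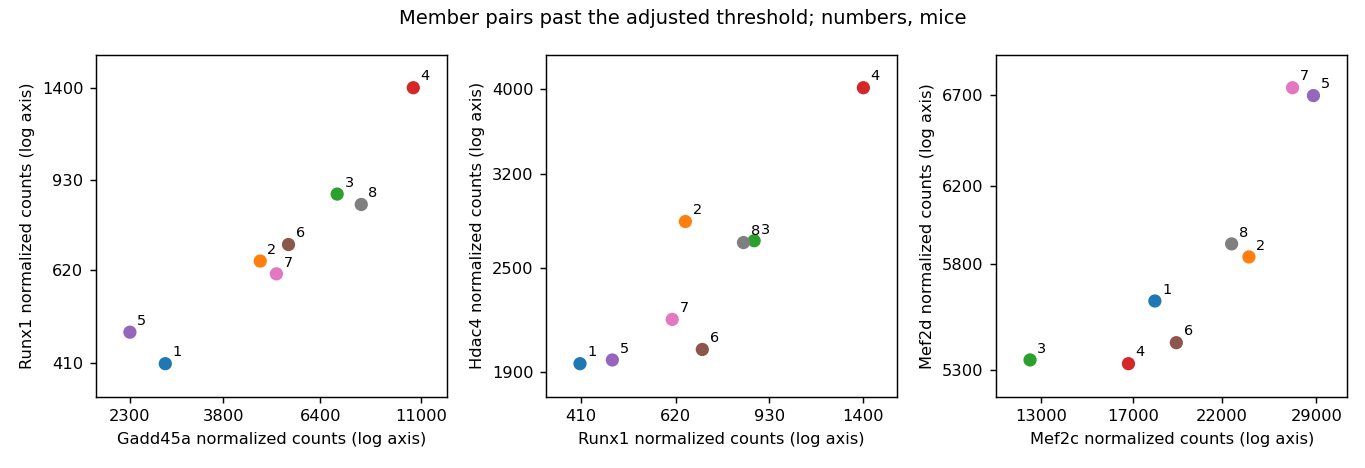
Normalized counts on log axes for the 3 pairs past the adjusted threshold, Gadd45a with Runx1, Runx1 with Hdac4 and Mef2c with Mef2d, with each point labelled by its mouse. Mouse 4 is at the upper right end of the first and second panel, and mice 5 and 7 of the third.

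Most other pairs were weak. Gadd45a and Hdac9 went in opposite directions with r = -0.72 (exact permutation p = 0.041, adjusted p = 0.295). Ncam1 had r = 0.69 with Runx1 and 0.66 with Gadd45a, neither of which passed (exact permutation, adjusted p = 0.323 and 0.388). Cdkn1a had r = 0.63 with Runx1 and 0.48 with Gadd45a (exact permutation, adjusted p = 0.422 and 0.461). These were 0.33 and 0.21 without mouse 4, and 0.85 and 0.89 without mouse 5. Hdac4 and Hdac5 had r = -0.45, and the MEF2 factors had negative r with Gadd45a, Runx1, Hdac4 and Ncam1, none past the threshold. These signs depended on the scaling: with library totals r was 0.11 for Hdac4 and Hdac5 (0.08 with the depth trend removed), and Mef2d had r = 0.13, 0.27, 0.20 and 0.34 with Gadd45a, Runx1, Hdac4 and Ncam1, while Mef2c stayed negative with these genes.

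**Figure D5:**
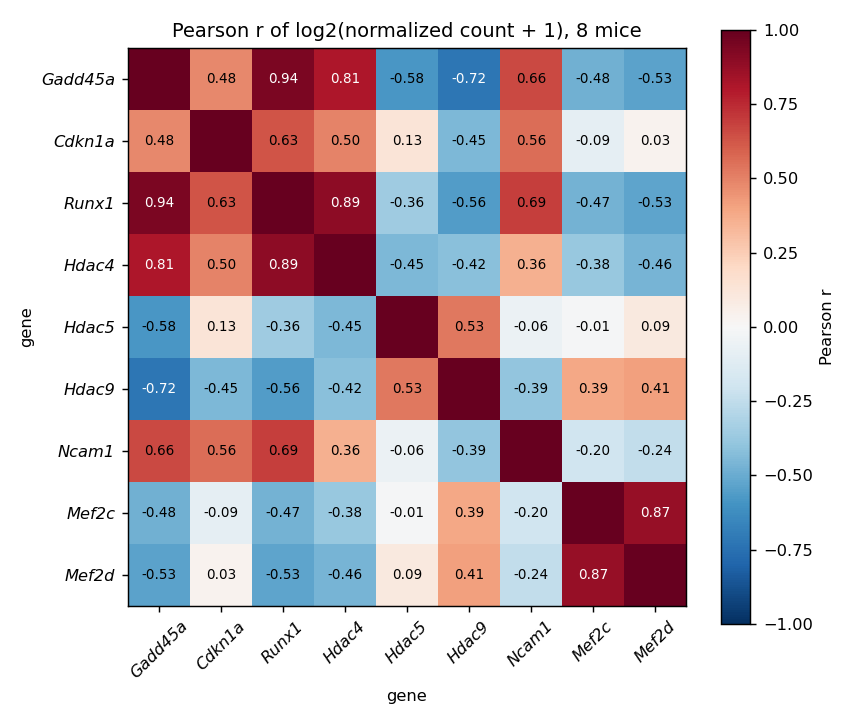
Pearson r of log2(normalized count + 1) over 8 mice for each pair of the 9 genes, with the value printed in each square and red for positive and blue for negative r. The positive block of Gadd45a, Runx1 and Hdac4 (0.81 to 0.94) and the Mef2c and Mef2d square (0.87) hold the 4 values of at least 0.8 in size.

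The surrounding pathway was read through lists of relatives, upstream regulators, denervation targets, p53 targets and MEF2 targets, of which 33 of 38 genes reached the count minimum. None of the 297 relations between a member and a list gene passed after adjustment, while 32 had an unadjusted exact permutation p under 0.05 and 14 an r of at least 0.8 in size. Those with the largest r were Hdac5 with Slc2a4, the insulin-responsive glucose transporter (r = 0.91, exact permutation p = 0.0038), Runx1 with Fbxo30, a ubiquitin ligase of wasting muscle (r = 0.91, exact permutation p = 0.0035), and Hdac9 with Map3k4, a kinase that GADD45 proteins bind and activate (r = 0.91, exact permutation p = 0.0014). Each had an adjusted p = 0.274. With library totals as scaling, Hdac5 with Slc2a4 passed (r = 0.94, exact permutation, adjusted p = 0.0074). That scaling gave 78.1% of all genes a positive r with Hdac5, against 51.6% with the deposited one.

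The denervation targets, among them myogenin, acetylcholine receptor subunits, Musk and the ubiquitin ligases Fbxo32, Trim63 and Fbxo30, were highest in mouse 4 for 9 of 11 genes at the minimum, against 13.1% of all genes. The exceptions were the developmental myosins Myh3, highest in mouse 8, and Myh8, highest in mouse 1. Dach2, another list gene, was among the 9 on a near tie, with 67.1 normalized counts in mouse 4 against 65.6 in mouse 6. The list did not separate genes that rise on denervation from genes that fall. The r of Dach2, counted below with the others, was 0.24 with Hdac4, 0.19 with Runx1, 0.19 with Gadd45a, 0.15 with Ncam1 and -0.45 with Cdkn1a. Fbxo30, for one, ran from 729.4 normalized counts in mouse 1 through a median of 1093 to 1770 in mouse 4. The median r with the 11 targets was 0.68 for Runx1, 0.54 for Hdac4, 0.48 for Gadd45a, 0.44 for Cdkn1a and 0.32 for Ncam1, with 9, 9, 9, 8 and 9 of the 11 positive. It was -0.12 for Hdac5, -0.27 for Mef2d, -0.34 for Mef2c and -0.41 for Hdac9, with 1, 2, 4 and 3 positive. Over all genes the share of positive r with Gadd45a was 50.1%. Much of this rested on mouse 4: without it the median r was 0.32 for Runx1, 0.29 for Gadd45a, 0.12 for Ncam1, 0.08 for Cdkn1a and -0.02 for Hdac4, with 8, 9, 7, 8 and 5 of 11 positive. For Hdac5, Mef2d, Mef2c and Hdac9 it was then -0.09, -0.05, -0.19 and -0.37. With library totals the median turned positive for Hdac5 (0.19, 7 of 11 positive) and Mef2d (0.10, 8 of 11). Over all genes the share of positive r also rose under this scaling, from 51.6% to 78.1% for Hdac5 and from 49.2% to 69.2% for Mef2d. The positive counts of Runx1 (9 of 11), Hdac4 (9 of 11) and Gadd45a (9 of 11) were then near the all-gene shares of 83.6%, 84.1% and 79.2%.

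The 4 MEF2 targets were Slc2a4, Ckm, Ppargc1a and Nr4a1. Their r was positive for 4 of 4 with Mef2c (median 0.46) and with Mef2d (median 0.50), for 3 of 4 with Hdac5 and with Hdac9, for 2 of 4 with Cdkn1a, and for 0 of 4 with Gadd45a, Runx1, Hdac4 and Ncam1. Among all genes, 48.2% to 51.9% had a positive r with the member. With library totals the counts were 3 each for Mef2c and Mef2d, 2 each for Runx1 and Ncam1, 1 for Hdac4 and 0 for Gadd45a. The all-gene shares of positive r were then 21.3% for Mef2c, 69.2% for Mef2d, 83.6% for Runx1, 78.7% for Ncam1, 84.1% for Hdac4 and 79.2% for Gadd45a, and Mef2d with Ckm went from r = 0.34 to -0.60. Without mouse 4 the counts were 3 and 4 of 4 for Mef2c and Mef2d, 0 for Runx1, and 1 each for Gadd45a, Hdac4 and Ncam1. Some textbook pairs were chosen after their values were seen. Myogenin, whose repression Hdac4 is known to relieve, had r = 0.20 with Hdac4 and 0.75 with Ncam1, Atf4, an activator of Gadd45a in wasting, had r = -0.22 with Gadd45a, and Trp53, the gene of p53, had r = 0.68 with Cdkn1a. Ncam1 had r = 0.87 with Chrnd, an acetylcholine receptor subunit (exact permutation p = 0.0059, adjusted p = 0.274). None of these passed over the 297 relations.

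For each member the 3 genes with the highest Pearson r over the 8 mice, among the 15134 other genes at the minimum, were taken as the most alike in profile. For Gadd45a these were Mad2l2, Cd82 and Gm42890 (r = 0.98 each), for Cdkn1a Gm5449, Entr1 and Ranbp10 (0.97, 0.97 and 0.96), and for Runx1 BC048403, Nprl3 and Gm20186 (0.98, 0.97 and 0.96). For Hdac4 they were Bcl6b, Ctu1 and Zfp369 (0.97, 0.96 and 0.95), for Hdac5 Aifm2, Agt and Cyth1 (0.98, 0.97 and 0.96), and for Hdac9 Creb3l1, Stxbp3-ps and Tshz3 (0.98, 0.98 and 0.96). For Ncam1 they were Kcnq5, Trip4 and Atp6v1g2 (0.97, 0.97 and 0.96), for Mef2c Fam49b, Srpk2 and Nipa2 (0.98, 0.97 and 0.97), and for Mef2d Atg4a, Gm9830 and Atg4a-ps (0.98, 0.98 and 0.97). With 8 mice the list is fragile: of the 27 genes, 2 stayed among the 3 highest without mouse 5 and 10 to 17 did so without any other mouse. Atg4a-ps is named as a copy of Atg4a, so the counts of both are uncertain where reads could be split. The share of genes with an r of at least 0.8 in size ran from 1.52% for Hdac4 to 4.69% for Hdac9, with 4.62% for Cdkn1a, 2.43% for Hdac5 and 2.11% for Ncam1.

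Against the scores of 10 cell type marker lists, library depth and the share of the 10 most abundant genes, 108 relations with the members were computed. None passed after adjustment, and 5 had an unadjusted exact permutation p under 0.05. Besides depth and the endothelial score named above, Cdkn1a had r = -0.76 with the share of the 10 most abundant genes (exact permutation p = 0.031, adjusted p = 0.604). The part of these measures in the spread of the members was not tested.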

How the data were processed

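RNA was extracted from frozen muscle and poly-adenylated RNA was sequenced. Per the submitters' processing notes, reads were checked with FastQC, trimmed with fastp and mapped with STAR to GRCm38.p6, and the study's methods name summarizeOverlaps for counting. How the size factors were made is not given in the sources used here. The annotation release, the strand setting and the handling of multi-mapped reads are not given in the sources used here. The deposited signal is a gene count that the authors divided by 1 size factor per library (0.906 to 1.20). This was read from the values, since 100% of nonzero values were whole multiples of 1 step per library within 0.01 of a read, and the recovered counts gave depth, count minimums and other scalings. The design had been written for normalized counts. Per-sample columns not used numbered 0. Of 55487 identifiers, 55227 were found in GENCODE M21 (GRCm38), which gave symbols, positions and lengths.

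Values were log2(normalized count + 1). Levels between genes were compared per kb of merged exon with exact sign-flip tests over all sign patterns, and relations with exact permutation over all pairings, all two-sided, with Benjamini-Hochberg adjustment within each family and a threshold of 0.05. Reads have no molecular identifiers, so counting error is a lower bound of technical error. The labels give 8 numbered samples and the series design 8 mice, and each sample was taken as 1 mouse, so p-values cover spread between mice of 1 condition. The members and lists were chosen with earlier results of these data known. Genes named were the 9 members, their relatives, list genes in a relation past the threshold or else the 3 largest r, the 3 genes most like each member, the leading gene of marker lists and markers at 0, and any other is said to be chosen after its values were seen or is given as part of a list. Marker scores were mean z-scores over list genes at the count minimum, and of 11 lists the T cell list had none and gave no score. Some list genes are not reported here by name.

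Promoters and motif shares were taken from RefSeq windows on GRCm38.p6. Alternatives were edgeR TMM factors, library totals, a pseudocount of 5, the longest transcript as length, Spearman correlation, removal of GC content and length trends, other gene filters and leaving out each mouse. The removal of a trend on library depth, the spread and list medians without mouse 4, and the list medians with library totals were chosen after seeing the data. Scripts were tested on simulated data. Tests ran in scipy 1.17.1 (Python 3.11.15) and TMM factors in edgeR 4.0.16 (R 4.3.3).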

Additional observations from a re-analysis of the deposited data

Results flagged for a closer look

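Each measure below had 1 mouse whose gap to its nearest neighbour was, as a share of the range of the 8 mice, above the 95% critical value of Dixon's test. Of 70 measures tested, 8 met this, and chance gives about 1 in 20 (3.5 of 70). Runx1 was 1400.8 normalized counts in mouse 4, against 408.8 to 871.5 in the other mice. Hdac4 was 4015.4 in mouse 4, against 1941.8 to 2823.2. Gadd45b was 464.9 in mouse 5, against 197.6 to 314.2, and its share of the GADD45 level per kb was 11.5% in that mouse, against 2% to 5.87%. Ppargc1a, the gene of the coactivator PGC-1alpha, was 2903 in mouse 5, against 1092 to 1722. Map3k4 was 835.2 in mouse 8, against 1083 to 1284 in the other mice. The Mef2d share of the MEF2 level per kb was 43.2% in mouse 3, against 33.4% to 38.0%. Mef2d itself was at 5346 normalized counts in that mouse, below its median of 5728, while Mef2c was at its lowest, 12591. The satellite cell marker score was 1.06 in mouse 6, against -0.388 to 0.28.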

How the results depend on the processing

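Mean levels of all 9 genes moved by less than 1 SD between mice under every alternative run. Of the CVs, that of Hdac4 was 34.9% with library totals and 16.6% to 29.8% with 1 mouse left out, that of Runx1 26.5% to 45.6% and that of Hdac5 10.6% to 17.7%. With the longest transcript as length, Hdac7 took 8.05% of its family, Mef2a 19.1%, Mef2b 0.214%, Mef2c 60.6%, Mef2d 20.1%, Cdkn1a 48.4% and Cdkn1b 30.1%, and Ncam1 minus Runx1 was -0.61. With 1 mouse left out, Ncam1 minus Runx1 ran from -0.0697 to 0.0883 and Hdac4 minus Hdac5 from -0.0602 to 0.154. Of 36 member pairs, 3 passed in the reported analysis, 1 (Gadd45a with Runx1) with TMM factors, 2 with library totals, 4 with GC content and length corrected, 0 with Spearman correlation, 0 with the depth trend removed and 0 to 3 with 1 mouse left out. Among the 297 pathway relations, 1 passed with library totals. The r of Gadd45a with Atf4 was 0.15 with library totals, 0.0952 with Spearman correlation and -0.445 to 0.387 with 1 mouse left out, and that of Hdac4 with Myog -0.347 to 0.448. Of the 27 most alike genes, 2 to 17 stayed. The cause of these shifts was not tested. Counting error weighed most for Hdac9. No pairing between conditions was possible because all mice belong to a single condition, and the order tests paired genes within each mouse.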

Other observations

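The kinases that hold class IIa histone deacetylases in the cytoplasm differed in level and in spread. Sik1, a salt-inducible kinase, had 1808 normalized counts in mouse 1, 3509 at the median and 5107 in mouse 4, with a mean of 3295 ± 1168 (SD, n = 8). Its r was 0.86 with Ncam1, 0.82 with Runx1, 0.81 with Gadd45a and 0.78 with Cdkn1a, none of which passed over the 297 relations (exact permutation, adjusted p = 0.274, 0.274, 0.362 and 0.366). With the deacetylases themselves its r was 0.52 for Hdac4, -0.14 for Hdac5 and -0.62 for Hdac9 (exact permutation, adjusted p = 0.555, 0.913 and 0.524), and for Hdac4 it was 0.21 without mouse 4. Camk2b averaged 7364 ± 763, Camk2a 5707 ± 1202, Camk2g 3616 ± 586 and Camk2d 1775 ± 198 normalized counts. Camk2a was lowest in mouse 4 (4075) and its r with Runx1 was -0.72 (exact permutation p = 0.042, adjusted p = 0.403). Prkd1, protein kinase D1, was scarce at 78.8 ± 22.0 normalized counts.

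Atf4, the stress response factor, averaged 2875 ± 511 normalized counts with its highest value, 3814, in mouse 5, the mouse with the lowest Gadd45a. The p53 targets Mdm2 (1717 ± 187) and Ccng1 (14521 ± 2410) sat at opposite ends in mouse 1, which had the lowest Mdm2 and the highest Ccng1. These genes were taken from the fixed lists, and their values were seen before they were described.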
